A study of Mus musculus with 34 samples.

Results

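Copying a genome needs a supply of the 4 DNA building blocks and a set of proteins that work at the moving replication fork, and the 9 genes described here serve these ends. They are Rrm1, Rrm2, Tk1, Tyms, Dut, Dck, Pcna, Pclaf and Top2a, chosen by name, each read by the probe set with the highest mean among those annotated with its symbol alone. The array reads 18193 genes in all, of which 11993 exceeded log2 4 on at least 4 arrays and were tested. Of the 9 genes 8 passed this filter, and Tyms did not.

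The mice were wild-type (WT) or lacked trkB.T1 (KO), the truncated receptor for brain-derived neurotrophic factor made from the Ntrk2 gene, which has no kinase domain. Both genotypes had sham surgery or a spinal cord injury, and the cord was taken from injured mice after 1, 3 or 7 days. The 34 arrays comprise 4 sham, 5 day 1, 4 day 3 and 4 day 7 arrays of WT cord, and 4 sham, 4 day 1, 5 day 3 and 4 day 7 arrays of KO cord. The type of injury, the level of the cord, and the age, sex, strain and way of knockout are not given in the sources used here. The labels do not say whether each array is a separate animal, so p-values measure the spread between samples only, and the number of arrays limits the precision. Values are log2 signals as deposited, a value after ± is an SD for a level and a standard error for a difference, and adjusted p-values are from limma with Benjamini-Hochberg adjustment over all tested genes of a comparison. Values under log2 4 are not well above background. Where the lower group holds such a value, it was set to 4 and the fold is printed as a lower bound.

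Ribonucleotide reductase, built of the large subunit Rrm1 and the small subunit Rrm2, turns ribonucleotides into deoxyribonucleotides. Thymidylate synthase (Tyms) makes thymidylate from deoxyuridylate, which Dut supplies while it keeps uracil out of DNA, and the kinases Tk1 and Dck recover thymidine and deoxycytidine. Pcna is the sliding clamp that tethers DNA polymerases, Pclaf binds to that clamp, and Top2a untangles the copied strands up to mitosis. Uninjured adult cord holds few dividing cells, and injury is known to set glia, macrophages and vessel cells dividing.

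Most S-phase genes are driven from promoters with E2F sites, and those whose transcripts peak late in the cycle often carry CCAAT boxes, which NF-Y binds, and CHR elements. The start regions of 4 of the genes are shown because Rrm2, Pclaf and Top2a are the genes on which the genotypes differed most at day 1, and Pcna rose at that time in KO cord as well. Each line holds the 250 bases before the start of the gene in the RefSeq promoter table of build GRCm38.p6, 5′ to 3′ on the strand of the gene, with motif matches on either strand in capitals. The windows are chr12:24708004-24708253 on the plus strand, chr9:65890073-65890322 on the plus strand, chr11:99024190-99024439 on the minus strand and chr2:132253181-132253430 on the minus strand.
Rrm2: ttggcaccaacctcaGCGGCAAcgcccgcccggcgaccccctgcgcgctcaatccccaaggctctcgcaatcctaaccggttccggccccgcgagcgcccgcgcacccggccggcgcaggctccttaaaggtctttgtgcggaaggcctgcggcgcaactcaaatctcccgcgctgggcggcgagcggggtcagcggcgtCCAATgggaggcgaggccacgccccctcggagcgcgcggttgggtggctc
Pclaf: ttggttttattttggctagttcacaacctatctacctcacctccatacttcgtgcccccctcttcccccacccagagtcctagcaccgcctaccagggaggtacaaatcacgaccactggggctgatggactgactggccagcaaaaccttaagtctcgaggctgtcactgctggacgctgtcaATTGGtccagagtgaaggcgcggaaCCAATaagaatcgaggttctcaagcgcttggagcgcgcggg
Top2a: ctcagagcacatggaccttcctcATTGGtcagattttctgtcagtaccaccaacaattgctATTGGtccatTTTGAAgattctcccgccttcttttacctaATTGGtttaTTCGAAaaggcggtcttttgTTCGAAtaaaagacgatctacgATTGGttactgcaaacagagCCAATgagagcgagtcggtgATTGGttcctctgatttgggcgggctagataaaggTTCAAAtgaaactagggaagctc
Pcna: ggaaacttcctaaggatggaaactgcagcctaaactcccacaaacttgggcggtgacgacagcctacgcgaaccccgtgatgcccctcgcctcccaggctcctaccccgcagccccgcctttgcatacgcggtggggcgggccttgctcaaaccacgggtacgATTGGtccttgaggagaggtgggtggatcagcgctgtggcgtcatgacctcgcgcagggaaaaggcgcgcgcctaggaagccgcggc
All 9 genes had a window, and the search covered 300 bases, from 250 before to 50 after the start. E2F-like letters (TTGGCGC or TTCGCGC or TTCCCGC or TTGCCGC) stood in 3 of the 9 windows, those of Rrm1, Rrm2 and Pclaf, against 9.57% of the 32851 windows of the table, and the 2 matches of Pclaf lie after the printed bases. CCAAT stood in 5 of the 9, Rrm1, Rrm2, Pcna, Pclaf and Top2a, against 37.4% of all windows. The CHR letters TTTGAA or TTCGAA stood in 2, those of Dck and Top2a, against 19.2%. The Top2a window held 6 CCAAT matches, and 0.0791% of all windows hold 6 or more. It also held 4 CHR matches, and 0.0244% of all windows hold 4 or more. No motif overlapped another in the printed windows. A match describes the letters and is not a binding site.

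As a check on the labels, the targeted gene Ntrk2 is read by 8 probe sets, of which 2 separate the genotypes. These read at least 8.65 and 10.01 on every WT array and at most 2.83 and 4.94 on every KO array but 1, the library labelled KO sham replicate 2, which read 8.59 and 9.46. That library goes against its label, and each comparison with KO sham cord below rests on it in part. Of the cord's own cells, all markers of astrocytes and oligodendrocytes and 5 of 6 of neurons read above log2 4 on every array, while Chat, the enzyme that makes acetylcholine in motor neurons, was at or near the floor of the arrays. All 3 lymphocyte markers were at the floor in every group mean. Skeletal muscle markers averaged 9.89 ± 1.17 in KO sham cord and 4.61 ± 1.69 in KO cord at day 1, and all 4 fell in that comparison. Their part in the KO injury results was not tested.

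Rrm2, the small subunit of ribonucleotide reductase, had the widest range of the nucleotide enzymes. It read 5.80, 6.06, 6.43 and 7.17 on the WT sham arrays, 8.62, 8.66, 8.77, 8.90 and 9.38 at day 1, 10.37, 10.74, 10.90 and 11.10 at day 3, then 8.59, 9.01, 9.07 and 9.12 at day 7. The KO arrays read 5.20, 5.71, 5.99 and 6.43 after sham surgery, 5.67, 6.54, 6.58 and 7.01 at day 1, 10.66, 10.78, 11.08, 11.63 and 11.64 at day 3, then 8.79, 8.92, 9.02 and 9.14 at day 7. Every WT array at day 1 stood above every sham array, whereas the KO arrays at day 1 overlapped those of KO sham cord, and at days 3 and 7 the genotypes overlapped each other. Rrm2 rose 5.65-fold in WT cord at day 1 (2.50 ± 0.27, adjusted p = 1.14e-08) and was at 0.62 ± 0.29 in KO cord (adjusted p = 0.0725). The KO difference passed without KO day 1 replicate 4 (0.88, adjusted p = 0.0139) or KO sham replicate 3 (0.82, adjusted p = 0.0265), and was 0.40 without the library labelled KO sham replicate 2. At day 3 it rose 21.3-fold in WT (4.41 ± 0.29, adjusted p = 1.75e-13) and 40.1-fold in KO cord (5.32 ± 0.27, adjusted p = 4.77e-16). In bulk tissue, fewer cells of a type and less RNA per cell cannot be told apart.

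The large subunit moved less. Rrm1 read 7.12 to 7.40 on the WT sham arrays, 7.86 to 8.33 at day 1, 8.80 to 8.93 at day 3 and 7.92 to 8.01 at day 7. The KO arrays read 7.11, 7.15, 7.2 and 7.32 after sham surgery, 7.32, 7.43, 7.50 and 7.65 at day 1, 8.93 to 9.47 at day 3, and 7.73 to 8.06 at day 7. All 5 WT arrays at day 1 stood above all KO arrays of that day, and the lowest KO array at day 1 met the highest of KO sham. Rrm1 rose by 0.80 ± 0.10 in WT (adjusted p = 1.73e-07) and by 0.28 ± 0.11 in KO cord at day 1 (adjusted p = 0.0286). The KO call did not hold in 4 of 34 refits that each omitted an array, KO day 1 replicates 1 and 2 and KO sham replicates 1 and 4. At day 3 the gene was 3.00-fold higher than sham in WT and 4.03-fold higher in KO cord (adjusted p = 3.66e-13 and 3.32e-16). Rrm2b, the p53-responsive subunit that takes the place of Rrm2 outside S phase, moved the other way. It fell from sham by 0.44 ± 0.08 in WT (adjusted p = 2.86e-05) and by 0.69 ± 0.08 in KO cord (adjusted p = 7.88e-09) at day 3.

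On the thymidylate route, Tyms could not be followed. Its 4 own probe sets stayed under log2 4 on every array, the highest value being 3.50. A probe set annotated with both Tyms and the pseudogene Tyms-ps cannot be assigned to either. It averaged 4.64 ± 0.62, 6.35 ± 0.20, 7.22 ± 0.56 and 5.98 ± 0.04 in WT cord from sham to day 7, and 4.62 ± 0.19, 5.68 ± 0.11, 7.86 ± 0.59 and 6.06 ± 0.12 in KO cord. It rose at day 1 in WT (1.71 ± 0.25, adjusted p = 1.85e-06) and in KO cord (1.06 ± 0.26, adjusted p = 0.00177), with p-values adjusted over all probe sets, and its KO minus WT difference at day 1 was -0.68 ± 0.25 (adjusted p = 0.323).

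Dut changed little and in a less even manner. It read 8.02 to 8.18 on the WT sham arrays, 8.21 to 8.52 at day 1, 8.26 to 8.61 at day 3 and 7.65 to 7.89 at day 7, so that the day 7 arrays stood below sham. The KO arrays read 8.09 to 8.16, 7.80 to 8.08, 8.30 to 8.97 and 7.81 to 8.04 in the same order. It rose in WT cord at day 1 (0.27 ± 0.09, adjusted p = 0.0167), a call lost without WT day 1 replicate 1 (0.23, adjusted p = 0.0517), and at day 3 (0.38 ± 0.10, adjusted p = 0.00164) and fell at day 7 by 0.26 ± 0.10 (adjusted p = 0.0241), which was lost without WT day 7 or WT sham replicate 4. It also rose in KO cord at day 3 (0.50 ± 0.09, adjusted p = 3.15e-05), and stood at -0.15 ± 0.10 at day 1 (adjusted p = 0.204) and -0.22 ± 0.10 at day 7 (adjusted p = 0.0668). A second Dut probe set, at 3.06 to 4.86 over all arrays, went the other way, with a fall of 0.93 ± 0.15 in WT and 1.11 ± 0.15 in KO cord at day 3, so the direction of Dut rests on the probe set chosen.

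Of the salvage kinases, Tk1 was seen above background almost exclusively at day 3. It read 5.82, 5.87, 6.05 and 6.29 on the WT and 5.81, 5.88, 6.20, 6.86 and 6.90 on the KO arrays of that day. Of the other 25 arrays 1 exceeded log2 4, WT day 7 replicate 4 at 4.75. Tk1 was thus tested only because of its day 3 values, and it stood at least 4.02-fold above sham in WT and at least 5.03-fold above sham in KO cord then, values that its selection required. Its day 7 calls were lost with values under 4 set to 4 (adjusted p = 0.371 in WT and 1 in KO cord) and with quantile normalisation (adjusted p = 0.266 and 0.578). Dck, present at 9.94 to 11.38 on every array, did not pass in WT cord at any day, with differences from sham between -0.09 ± 0.16 and 0.14 ± 0.17. KO cord showed a fall of Dck by 0.40 ± 0.17 at day 1 (adjusted p = 0.0482) and a rise by 0.53 ± 0.16 at day 3 (adjusted p = 0.00408). The fall did not hold in 21 of 34 refits that each omitted an array, and was -0.35 (adjusted p = 0.117) without the library labelled KO sham replicate 2. Without WT day 3 replicate 2, which read 9.94 against 10.78 to 10.94, the WT difference at day 3 was 0.37 and passed (adjusted p = 0.0275).

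**Figure D1:**
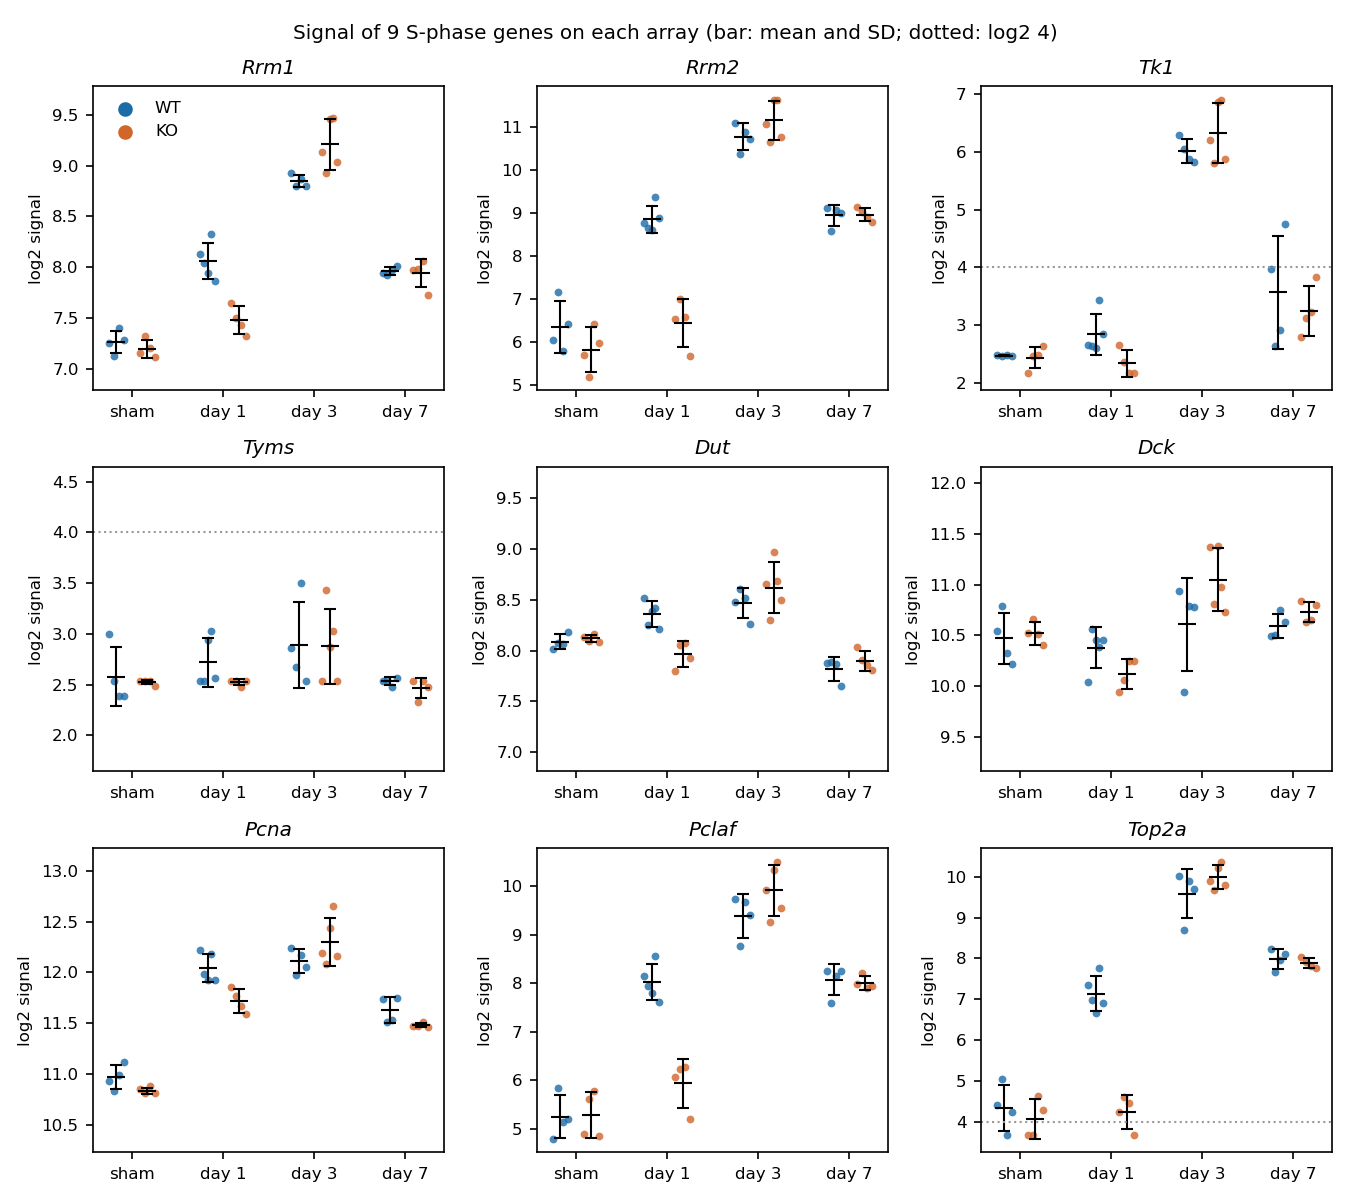
Log2 signal of the 9 genes (vertical axes) on each array by time (horizontal axes) in WT (blue) and KO cord (orange), with the group mean and SD as black bars and log2 4 dotted where it falls in the range shown. Rrm2, Pclaf and Top2a at day 1 lie near sham in KO and well above it in WT cord, while Pcna is raised in both.

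The clamp rose at day 1 in both genotypes. Pcna read 10.83, 10.93, 10.99 and 11.12 on the WT sham arrays, 11.92, 11.92, 11.98, 12.18 and 12.22 at day 1, 11.97 to 12.24 at day 3 and 11.51 to 11.75 at day 7. The KO arrays read 10.81, 10.81, 10.85 and 10.88, then 11.59, 11.67, 11.77 and 11.86 at day 1, 12.08 to 12.65 at day 3 and 11.46 to 11.51 at day 7. Every injured array stood above every sham array of its genotype at all 3 days. Pcna rose 2.11-fold in WT (1.07 ± 0.09, adjusted p = 1.38e-10) and 1.85-fold in KO cord (0.89 ± 0.10, adjusted p = 2.12e-08) at day 1.

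Pclaf behaved otherwise. It read 4.80, 5.14, 5.21 and 5.85 on the WT sham arrays, 7.62, 7.79, 7.95, 8.15 and 8.57 at day 1, 8.76 to 9.73 at day 3 and 7.59 to 8.26 at day 7. The KO arrays read 4.86, 4.90, 5.61 and 5.77 after sham surgery, 5.21, 6.06, 6.23 and 6.28 at day 1, 9.26 to 10.50 at day 3 and 7.91 to 8.22 at day 7. At day 1 the WT arrays were all above sham, and 1 of the 4 KO arrays fell within the KO sham range. Pclaf rose 6.80-fold in WT cord at day 1 (2.77 ± 0.27, adjusted p = 1.53e-09). In KO cord its difference was 0.66 ± 0.29 (adjusted p = 0.055), and it passed in 8 of 34 refits that each omitted an array. It was 0.77 (adjusted p = 0.0444) without the library labelled KO sham replicate 2 and 0.90 (adjusted p = 0.0125) without KO day 1 replicate 4. At day 3 it was 17.7-fold higher than sham in WT and 24.7-fold higher in KO cord (adjusted p = 6.86e-13 and 1.15e-14).

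Top2a started near the background level. It read 3.69, 4.24, 4.42 and 5.05 on the WT sham arrays, 6.67, 6.91, 6.99, 7.35 and 7.76 at day 1, 8.70, 9.70, 9.88 and 10.02 at day 3, then 7.66, 7.97, 8.10 and 8.22 at day 7. The KO arrays read 3.69, 3.69, 4.31 and 4.65 after sham surgery, 3.69, 4.25, 4.47 and 4.61 at day 1, 9.66, 9.79, 9.90, 10.21 and 10.36 at day 3, then 7.76, 7.81, 7.91 and 8.03 at day 7. The KO arrays at day 1 lay wholly within the KO sham range, and 2 days later the KO and WT arrays overlapped at the top of the scale. In WT cord Top2a rose at least 6.55-fold at day 1 (2.79 ± 0.27, adjusted p = 1.11e-09) and at least 35.5-fold at day 3 (5.23 ± 0.28, adjusted p = 3.77e-15). For KO cord the difference was 0.17 ± 0.28 at day 1 (adjusted p = 0.638), and Top2a rose at least 53.6-fold by day 3 (5.90 ± 0.27, adjusted p = 4.22e-17).

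Tk1 was tested only through its day 3 arrays, so the counts over time leave it out. Of the other 7 tested genes 6 rose in WT cord at day 1, all but Dck, where 27.1% of all tested genes rose, the rise of Dut resting on WT day 1 replicate 1. At day 3 again 6 of 7 rose, against 29.5% of all genes, and at day 7 5 rose, against 25.8%, while Dut fell, a call lost without either of 2 arrays. In KO cord at day 1 Rrm1 and Pcna rose, 2 of 7 against 23.7%, and Dck fell, 1 of 7 against 27.3%. Without the library labelled KO sham replicate 2 these became 3 and 0, with Pclaf added and Dck no longer passing. At day 3 all 7 rose in KO cord, against 30.9%, and at day 7 5 rose, against 23.5%, all but Dut and Dck, and both counts were the same without that library. The median difference of the 7 from sham was 1.07, 1.58 and 0.70 at days 1, 3 and 7 in WT and 0.28, 2.01 and 0.74 in KO cord, whereas the median of all tested genes lay between -0.06 and -0.05 throughout.

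The 7 genes other than Tk1 all had their highest mean at day 3 in both genotypes, a pattern that 14.5% of all tested genes show. For 3 of them the WT peak was not set apart. The WT day 3 arrays of Dut and Pcna overlapped those of day 1. Those of Dck overlapped day 7, with means of 10.61 and 10.59. From day 1 to day 3, 4 of the 7 rose in WT cord, against 15.4% of all genes, namely Rrm1, Rrm2, Pclaf and Top2a. In KO cord all 7 rose over that interval, against 23.5%. From day 3 to day 7, 6 of 7 fell in WT, against 12%, and 6 of 7 in KO cord, against 16.6%, Dck being the exception in both. Among those 6 the falls from day 3 ran from 0.48 ± 0.10 for Pcna to 1.83 ± 0.29 for Rrm2 in WT, and from 0.72 ± 0.09 for Dut to 2.19 ± 0.27 for Rrm2 in KO cord. Tk1, under log2 4 on average at day 7, was at least 3.53-fold lower than at day 3 in WT and at least 5.03-fold lower in KO cord. Since Tk1 was tested only through its day 3 values, this fall is not a separate result.

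The order of the remaining times differed by gene. In WT cord the arrays of days 1 and 7 overlapped for Rrm1, Rrm2, Dck, Pclaf and Top2a, while Dut and Pcna were lower at day 7 than at day 1 on every array, by 0.53 and 0.41 on average. In KO cord Rrm1, Rrm2, Dck, Pclaf and Top2a were higher at day 7 than at day 1 on every array, with Top2a apart by 3.62 and Rrm2 by 2.52. Tk1, mostly under log2 4 at these times, is left out. Of the other 7, Pcna alone was lower at day 7 than at day 1 on every array of both genotypes, by 0.25 in KO cord. Days 7 and 1 were not compared in limma, and the share of all tested genes that separate in this way is not given. Whether this order is particular to these genes is thus not known.

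The share of the day 3 difference from sham that was already present at day 1 set the genes apart. In WT cord it was 94.2% for Pcna, 71.2% for Dut, 66.8% for Pclaf, 56.6% for Rrm2, 53.4% for Top2a and 50.2% for Rrm1. The KO shares were 60.5% for Pcna, 14.2% for Pclaf, 13.9% for Rrm1, 11.6% for Rrm2 and 2.89% for Top2a, while Dut and Dck stood below sham at day 1. Without the library labelled KO sham replicate 2 the share of Top2a was 0.662% and that of Rrm2 7.91%, and Pclaf was at 16.2%, Rrm1 at 15.7% and Pcna at 60.3%. These shares are on the log2 scale, and each rests on the sham mean of its genotype. Pcna had the highest share in both genotypes, also without that library. Tk1 and Top2a have sham values near or under log2 4, and no share is given for Tk1.

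**Figure D2:**
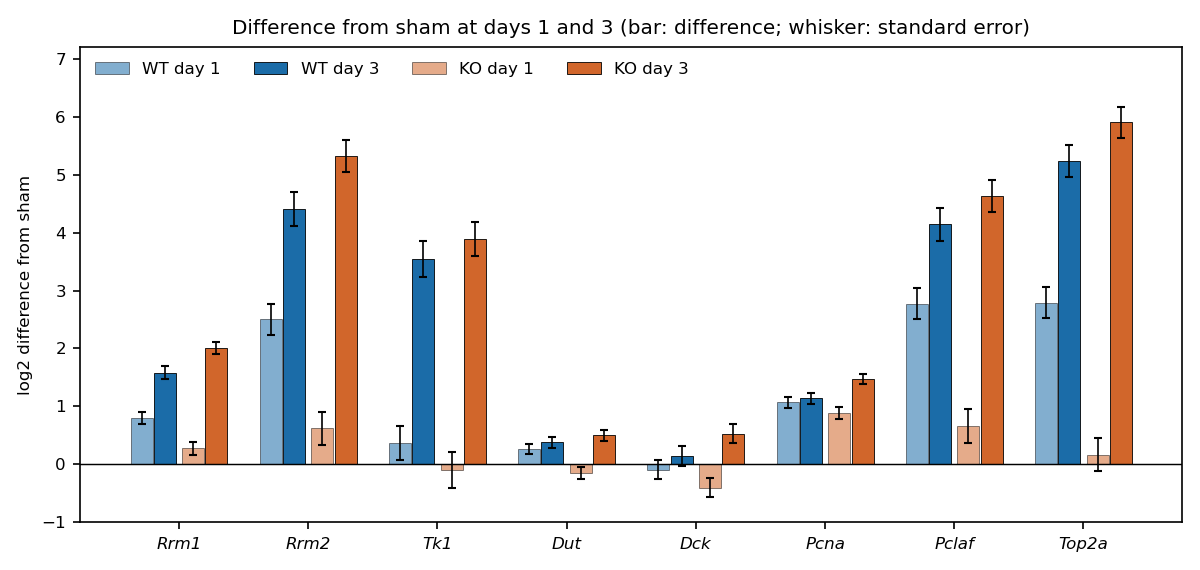
Log2 difference from sham (vertical axis) of the 8 tested genes at day 1 (pale) and day 3 (full colour) in WT (blue) and KO cord (orange), with standard errors as whiskers. At day 1 the KO bars of Rrm2, Pclaf and Top2a are 0.62, 0.66 and 0.17 against 2.50, 2.77 and 2.79 in WT, and at day 3 both genotypes stand at 4 or more for these genes.

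The direct comparison of KO with WT cord asks whether trkB.T1 loss alters these transcripts. At day 1, 5 of the 8 genes were lower in KO cord, against 0.667% of all tested genes, and 6 had no overlap between the genotypes, against 2.83%. Top2a was at least 6.99-fold lower (-2.88 ± 0.27, adjusted p = 9.92e-08), Rrm2 5.33-fold (-2.41 ± 0.27, adjusted p = 1.76e-06) and Pclaf 4.21-fold (-2.07 ± 0.27, adjusted p = 2.04e-05). Ranked by p-value over the 11993 tested genes, they were at places 2, 7 and 13. Rrm1 was 1.5-fold lower (-0.58 ± 0.10, adjusted p = 0.0015) and Dut 1.31-fold (-0.39 ± 0.09, adjusted p = 0.0383). Pcna stood at -0.32 ± 0.09 without overlap (adjusted p = 0.122, and 0.0445 without KO day 3 replicate 4), Tk1 at -0.50 ± 0.29 with all arrays under log2 4, and Dck at -0.26 ± 0.16 (adjusted p = 0.643). With only the 2 groups in the fit the calls of Rrm1 and Dut were lost (adjusted p = 0.0539 and 0.107), and that of Dut did not hold in 7 of 34 refits that each omitted an array, 3 of WT and all 4 of KO cord at day 1.

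Second probe sets of Rrm1, Rrm2, Pclaf and Top2a were below 0 in KO minus WT cord at day 1, and that of Dut was at 0.05 ± 0.15. The second probe set of Rrm2 was at -2.60 ± 0.26 (adjusted p = 2.86e-07) and that of Pclaf at -1.58 ± 0.32 (adjusted p = 0.0122), with its KO arrays under log2 4 on average. The second of Rrm1 was at -0.59 ± 0.21 and did not pass (adjusted p = 0.314), and a dim second of Top2a, at 3.27 in KO and 3.61 in WT cord, was at -0.34 ± 0.27 (adjusted p = 0.784). With all probe sets of a gene averaged, 3 of the 8 genes passed, Rrm1 (-0.39, adjusted p = 0.0552) and Dut (-0.17, adjusted p = 0.445) no longer among them.

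**Figure D3:**
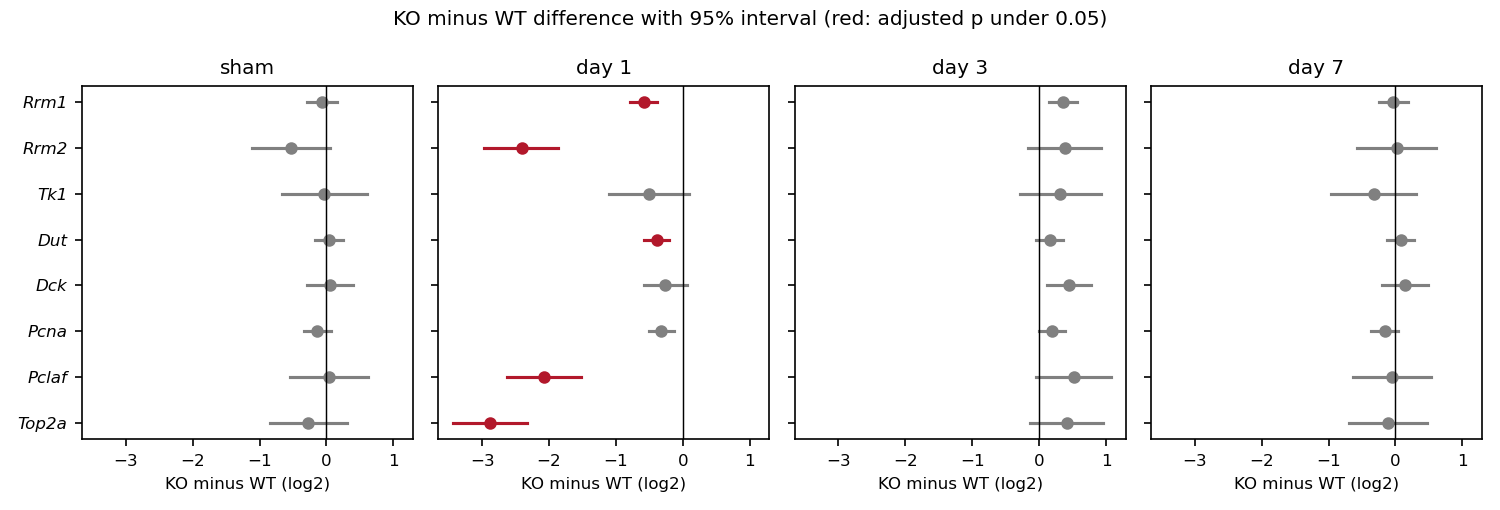
KO minus WT difference (horizontal axes, log2) of the 8 tested genes after sham surgery and at days 1, 3 and 7, with 95% intervals from the fit, red where the adjusted p was under 0.05. The 5 red points are all at day 1, and the points of Top2a, Rrm2 and Pclaf lie at -2.88, -2.41 and -2.07.

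At the other times no gene of the 8 passed in limma. After sham surgery the differences ran from -0.53 for Rrm2, which was -0.32 without the library labelled KO sham replicate 2, to 0.05, none had an unadjusted p under 0.05, and 0.0667% of all genes passed. At day 3 all 8 differences were above 0, from 0.16 ± 0.09 for Dut to 0.52 ± 0.27 for Pclaf. An unadjusted p under 0.05 was reached by 3 of them, Rrm1, Dck and Pcna, beside 1382 of all 11993 tested genes. After adjustment 0.0334% of all genes passed. At day 7 they ran from -0.32 to 0.14, with none under 0.05 unadjusted and 0.0334% of all genes passing. The 95% interval at day 7 was -0.57 to 0.60 for Rrm2, -0.64 to 0.53 for Pclaf and -0.69 to 0.47 for Top2a. These intervals are not adjusted for the number of genes, so they are not a limit of detection at the adjusted threshold.

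The difference between genotypes in the change from sham was tested as well. At day 1, 3 of the 8 passed, all lower in KO cord, against 0.142% of all genes. Top2a differed by -2.62 ± 0.39 (adjusted p = 0.00103), Pclaf by -2.11 ± 0.39 (adjusted p = 0.012) and Rrm2 by -1.88 ± 0.39 (adjusted p = 0.0389). The call of Rrm2 did not hold in 14 of 34 refits that each omitted an array. Without the library labelled KO sham replicate 2, in the same setting, Top2a was at -2.75, Pclaf at -2.00 and Rrm2 at -2.09, and all 3 passed (adjusted p = 0.00092, 0.0284 and 0.0132). With all arrays kept and all probe sets of a gene averaged, none of the 3 passed, at -1.49 for Rrm2, -1.02 for Top2a and -1.13 for Pclaf. For each of these genes the average includes a probe set under log2 4 on most or all arrays, which draws it toward 0. The second probe set of Rrm2 was at -2.27 ± 0.38 and passed (adjusted p = 0.00504). For Pcna the difference was -0.18 ± 0.14, with a 95% interval of -0.46 to 0.09. Pcna rose by only 1.07 in WT cord at day 1, so this value cannot be set against those of Top2a, Pclaf and Rrm2. No gene of the 8 passed at day 3, where 0% of all genes passed, or at day 7, where 0.00834% of all genes passed. At day 3, 3 of the 8 had an unadjusted p under 0.05, beside 839 of all 11993 tested genes, and at day 7 none did.

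Because they leave the sham arrays out, the changes between injured groups do not use the level of the library that goes against its label, which enters them only through the shared estimate of the spread. From day 1 to day 3, 5 of the 8 genes rose more in KO than in WT cord, against 0.709% of all genes. The excess was 3.29 ± 0.38 for Top2a (adjusted p = 6.92e-06), 2.79 ± 0.38 for Rrm2 (9.68e-05), 2.59 ± 0.38 for Pclaf (0.000296), 0.94 ± 0.14 for Rrm1 (0.000357) and 0.55 ± 0.13 for Dut (0.0425). Pcna was at 0.51 ± 0.13 (adjusted p = 0.0573). The call of Dut did not hold in 19 of 34 refits that each omitted an array. From day 3 to day 7 none of the 8 passed between genotypes in limma, and 0.00834% of all genes passed. Over that interval 2 of the 8 had an unadjusted p under 0.05, beside 967 of all 11993 tested genes. These tests share the day 1 arrays with the comparison of KO and WT cord at day 1 and are not independent of it.

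Arrays of 1 group that read high for one of these genes tended to read high for others. WT day 1 replicate 4 had the highest value of its group for Rrm1, Rrm2, Tk1, Pclaf and Top2a. KO day 1 replicate 4 had the lowest value of its group for Rrm1, Rrm2, Pcna, Pclaf and Top2a. KO day 3 replicates 3 and 4 were the 2 highest for Rrm1, Rrm2, Tk1, Pcna, Pclaf and Top2a, and WT day 3 replicate 2 was the lowest for Rrm2, Dck, Pcna, Pclaf and Top2a. Over the 8 group means, Pearson's r was 0.99 for each pair of Rrm2, Pclaf and Top2a, and 0.31 for Dck with Pcna, the least alike pair. All of these values share the same arrays and normalisation, so they are a description.

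Cell markers were compared at day 1 in the same arrays. No marker of any of the lists passed between KO and WT cord at that time. Fibroblast markers (4 genes) averaged 8.58 ± 0.63 in KO cord, with a range of 7.65 to 9.06, and 9.59 ± 0.49 in WT, with a range of 9.0 to 10.25. Macrophage markers (4 genes) averaged 7.46 ± 0.29 against 7.98 ± 0.43, with ranges of 7.22 to 7.82 and 7.47 to 8.55, and microglial markers (4 genes) 7.04 ± 0.29 against 7.46 ± 0.16. Endothelial markers (4 genes) stood at 6.93 ± 0.24 against 7.08 ± 0.18. Schwann cell markers (2 genes) averaged 7.36 ± 0.93 in KO cord, with a range of 6.07 to 8.13, and 8.30 ± 0.25 in WT, with a range of 8.02 to 8.63. After sham surgery they averaged 7.45 ± 1.23 in KO and 6.07 ± 0.35 in WT cord. These gaps came mostly from Pmp2, at 5.41 in KO and 7.18 in WT cord at day 1 and at 5.8 and 3 after sham surgery. Sox10 was at 9.32 and 9.42 at day 1 and at 9.1 and 9.13 after sham surgery. Both Schwann cell markers rose from sham in WT cord at day 1 and neither passed in KO cord. The median of their 2 differences in response was -2.32, with neither passing. Of the 4 fibroblast markers 2 rose in WT and 0 in KO cord at day 1. Over time the macrophage list averaged 5.16, 7.98, 9.41 and 10.34 from sham to day 7 in WT and 4.84, 7.46, 10.44 and 9.93 in KO cord. The lower KO average at day 7 than at day 3 came from Ccr2 alone, at 6.58 and then 3.46. The other KO means went from 11.37 to 11.39 for Cd68, from 14.39 to 14.8 for Lyz2 and from 9.41 to 10.07 for Ms4a7. The endothelial list averaged 5.47, 7.08, 7.95 and 6.13 in WT and 5.92, 6.93, 7.78 and 5.87 in KO cord. All 4 of its genes rose from sham at day 3 and fell from day 3 to day 7 in both genotypes. In the change from day 1 to day 3, 1 of the 4 macrophage markers rose more in KO than in WT cord, against 0.709% of all genes. The median difference of that list was 1.28. No marker of another list passed there. The fibroblast list had a median of 1.49, and 3 of its 4 genes rose over that interval in KO and 0 in WT cord. Of all genes 23.5% rose in KO and 15.4% in WT cord. The part of these shifts in the S-phase signal was not tested.

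Set among the wider pathway, the enzymes of nucleotide synthesis and supply moved in both directions. Of 44 genes listed 39 were tested beside the genes above. In WT cord 21 rose and 6 fell at day 1, 16 rose and 11 fell at day 3, and 12 rose and 10 fell at day 7, with medians of 0.18, 0.02 and -0.07. In KO cord 17 rose and 5 fell, 18 rose and 10 fell, and 9 rose and 9 fell, with medians of 0.21, 0.06 and -0.07. Over all tested genes 27.1%, 29.5% and 25.8% rose in WT cord at days 1, 3 and 7 and 32.5%, 37.4% and 33.3% fell, while in KO cord 23.7%, 30.9% and 23.5% rose and 27.3%, 38.8% and 31.0% fell. The nucleotide list thus stood above the share that rose at day 1 (53.8% in WT and 43.6% in KO cord) and near it at day 7 (30.8% and 23.1%). Nme2, a nucleoside diphosphate kinase, and Aprt, which salvages adenine, rose at every injured time in both genotypes, at 1.18 ± 0.07 and 2.07 ± 0.15 in KO cord at day 3. Guk1, guanylate kinase, fell by 0.66 ± 0.08 in WT and by 0.81 ± 0.08 in KO cord at day 3 (adjusted p = 8.69e-08 and 5.72e-10), and Gmps, GMP synthetase, by 0.88 ± 0.17 and 1.08 ± 0.16. None of the 39 passed between KO and WT cord at day 1 in limma, where the median was -0.03. An unadjusted p under 0.05 was reached by 4 of the 39, beside 1163 of all 11993 tested genes, a similar share.

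Genes of the replication fork were set against the same shares. Of 38 listed 36 were tested, of which 26 rose and 2 fell in WT cord at day 1 (median 0.47), 27 rose and 1 fell at day 3 (0.66), and 13 rose and 3 fell at day 7 (0.21). In KO cord 17 rose and none fell at day 1 (0.25), 31 rose and none fell at day 3 (0.84), and 12 rose and 1 fell at day 7 (0.17). Those that rose made up 72.2%, 75% and 36.1% of the list in WT and 47.2%, 86.1% and 33.3% in KO cord. Among the 17 at KO day 1 were Timeless, a fork protection factor, at least 3.19-fold above sham, Gins1, part of the helicase, at least 2.88-fold, and Uhrf1, which reads hemimethylated DNA, at least 2.89-fold, since KO sham was under log2 4 on average for each. At day 1, 1 of the 36 was lower in KO than in WT cord, Uhrf1 (-1.34 ± 0.30, adjusted p = 0.0243), a call that did not hold in 5 of the 34 refits, and the median over the list was -0.23 against 0.02 over all tested genes. An unadjusted p under 0.05 was reached by 21 of the 36, beside 1163 of all 11993 tested genes. From day 1 to day 3 Uhrf1 (1.80 ± 0.43), the polymerase subunit Pola1 (1.46 ± 0.36) and the clamp loader subunit Rfc3 (1.03 ± 0.25) rose more in KO cord (adjusted p = 0.0343, 0.0425 and 0.0433). These calls did not hold in 9, 20 and 20 of the 34 refits.

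The chromatin assembly list was the smallest, with 9 tested genes of 12. In WT cord 6 rose and 1 fell at day 1, 6 rose and 2 fell at day 3, and 4 rose and 1 fell at day 7. In KO cord 3 rose and 3 fell, 6 rose and 1 fell, and 1 rose and 1 fell. The KO counts at day 1, 33.3% in each direction, stood near the shares of all genes, of which 23.7% rose and 27.3% fell. At day 7 the KO counts, 11.1% in each direction, stood below those shares of 23.5% and 31.0%. Hells, a chromatin remodeller, was lower in KO than in WT cord at day 1 (-1.07 ± 0.20, adjusted p = 0.00422). The histone chaperone Asf1b was at -1.02 ± 0.26 there (adjusted p = 0.0574), with KO arrays under log2 4 on average. From day 1 to day 3 both rose more in KO cord, by 1.41 ± 0.28 for Hells and 1.84 ± 0.37 for Asf1b (adjusted p = 0.0116 for each). Averaged over all probe sets, Hells was at -0.37 at day 1 and did not pass.

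**Figure D4:**
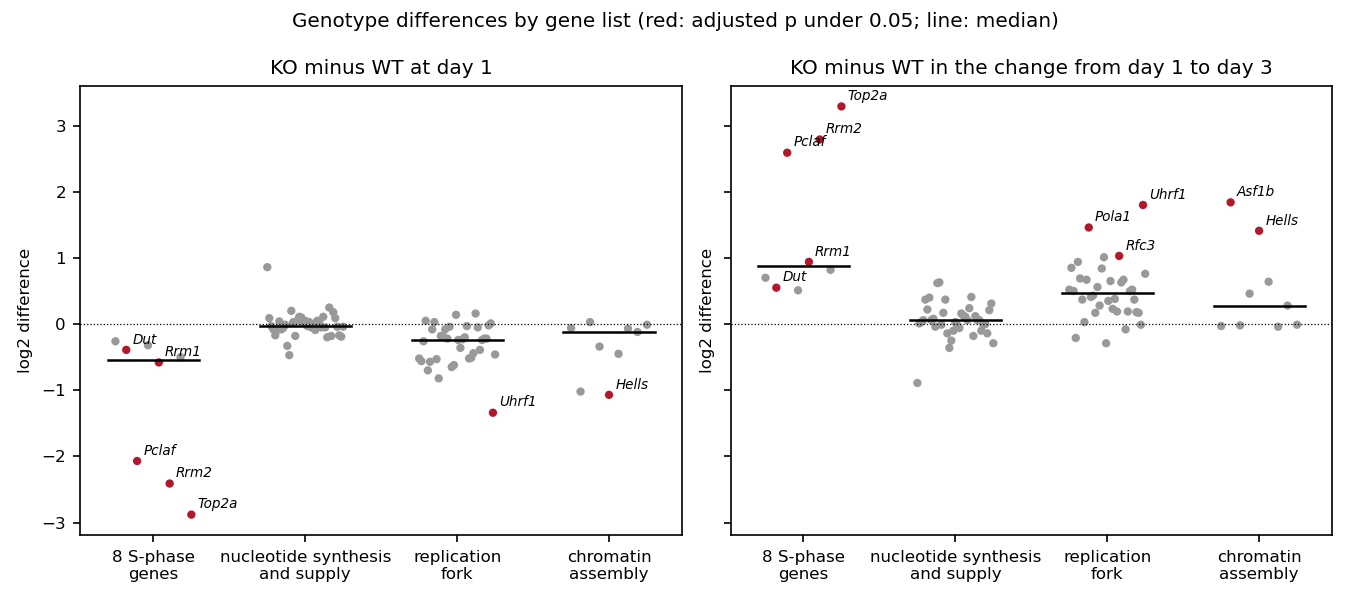
Log2 difference between genotypes (vertical axes) of each tested gene, KO minus WT at day 1 (left) and in the change from day 1 to day 3 (right), for the 8 S-phase genes and 3 lists, with the median as a line and adjusted p under 0.05 in red. None of the 39 nucleotide synthesis genes is red in either panel, and Top2a, Rrm2 and Pclaf lie outside the range of the 3 lists.

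Among the 2462 tested genes whose 8 group means had an SD of at least 0.5, likeness was measured by Pearson's r over those means, which share the arrays and the normalisation. The mean of the 8 genes was most like Asf1b (0.996), Zwilch (0.995), Cenpk, Gmnn and Cenpi (0.991 each). That mean includes Tk1, whose day 3 peak its selection required. Cenpi too averaged above log2 4 at day 3 alone, at 5.80 in WT and 6.23 in KO cord, so its likeness may follow from the filter. Asf1b, for one, averaged 2.97, 3.05, 6.22 and 4.06 in KO cord and 2.82, 4.07, 5.40 and 4.16 in WT cord from sham to day 7. Its sham means and its KO mean at day 1 are thus under log2 4. Rrm2 was most like Cdca5 (0.995), Rbl1 (0.994), Cdk1 (0.993), Cdca8 (0.991) and Bub1 (0.99), and Cdk1, the mitotic kinase, averaged 3.41, 4.11, 9.09 and 7.2 in KO cord. Pcna was most like Pdia6 (0.992), Pole2 (0.99), Mcm5 (0.989), Inhba (0.987) and Cdt1 (0.986). Cdt1, which loads the replicative helicase, averaged 5.95, 7.94, 9.01 and 7.77 in KO cord and 6.02, 8.60, 8.85 and 7.85 in WT cord from sham to day 7. Cdca5, Cdk1, Cdca8, Bub1 and Pole2 averaged under log2 4 in sham cord of both genotypes.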

How the data were processed

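RNA of spinal cord was hybridised to 1 Affymetrix array per sample, per the labels. The values deposited by the authors are log2 probe set signals. The submitters' processing notes name GCRMA, which adjusts background by probe GC content and normalises arrays by quantiles, so differences are relative within arrays and low signals gather near a floor. The values were used as deposited. Of 45101 probe sets 64 controls were left out, 34945 had 1 gene symbol, 932 several and 9160 none. Each gene was read by its probe set of highest mean over all 34 arrays, and the test was limited to genes that passed log2 4 on 4 or more arrays. A mean per group was fitted to all 8 groups with limma 3.58.1 in R 4.3.3, over 19 comparisons, with a threshold of 0.05 after Benjamini-Hochberg adjustment. The fit was tested on simulated data. The genes, the lists and the tests were chosen with earlier results of these data known. From each list the named genes come from those that passed in a comparison, up to 3 with the smallest p-values and, after injury, those that moved against most of their list, or the smallest p-value where none passed between genotypes, and the 5 genes most alike were named for each pattern. Promoter letters were read from RefSeq's table for GRCm38.p6, whereas no probe coordinates were used here. Alternatives covered the filter, low values, normalisation, the choice of probe set, the groups fitted, array weights, the prior, a replicate block and each array left out.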

Additional observations from a re-analysis of the deposited data

Results flagged for a closer look

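In 64 groups of 4 or 5 arrays (8 genes by 8 groups), 4 held an array far from the rest, where chance gives about 1 in 20 groups. Tk1 on WT day 1 replicate 4 read 3.44 against 2.61 to 2.85 on the others, all under log2 4. Dut on WT day 7 replicate 4 read 7.65 against 7.87 to 7.89. Dck on WT day 3 replicate 2 read 9.94 against 10.78 to 10.94. Pclaf on WT day 7 replicate 2 read 7.59 against 8.15 to 8.26.

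Of 40 genotype differences in change tested for the 8 genes, 8 passed in limma. In the change from sham to day 1, KO minus WT was -1.88 for Rrm2 (adjusted p = 0.0389), -2.62 for Top2a (adjusted p = 0.00103) and -2.11 for Pclaf (adjusted p = 0.012). In the change from day 1 to day 3 it was 0.94 for Rrm1 (adjusted p = 0.000357), 2.79 for Rrm2 (adjusted p = 9.68e-05), 0.55 for Dut (adjusted p = 0.0425), 3.29 for Top2a (adjusted p = 6.92e-06) and 2.59 for Pclaf (adjusted p = 0.000296). The 2 sets share the day 1 arrays.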

How the results depend on the processing

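Of 1520 values of the 8 genes under settings other than leaving out an array, 1470 kept their side of the threshold, 27 lost and 20 gained a pass, and 3 turned. A turn was counted only where the value passed in the main or the other setting, so those kept may include changes of sign without a pass. Of 5168 values with 1 array left out, 5075 kept their side of the threshold, 70 lost and 23 gained a pass. The 3 that turned were Dut with all its probe sets averaged, at -0.14 in WT at day 1, -0.28 in WT at day 3 and -0.30 in KO cord at day 3. With the same average, Prps2 in WT at day 3 and Slbp in KO at day 1, both lower in the main setting, were at 0.02. The number of the 8 genes passing in KO cord at day 1, which was 3, became 1 with quantile normalisation and 5 with array weights, and ran from 1 to 5 with 1 array left out: 1 without KO day 1 replicate 1 or 2 or KO sham replicate 1 or 4, and 5 without KO day 1 replicate 4. The count of 5 for KO against WT at day 1 became 3 with all probe sets averaged and 3 with only the groups compared. With all probe sets averaged, the count of 3 for the genotype difference in response at day 1 became 0, and that of 5 for the change from day 1 to day 3 became 3. The averages of Rrm1, Rrm2, Pclaf and Top2a include probe sets under log2 4 on most or all arrays, which draw differences toward 0.

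Deviations from the group means correlated with a median of 0.004 over 113 same-number pairs (-0.51 to 0.56) and -0.015 over 392 others (-0.45 to 0.55). Same-number arrays were thus not more alike in general, and whether some of them share a batch was not tested. With the replicate number as a block, Rrm2 lost its call in the response at day 1 (-1.93, adjusted p = 0.0512), as did Dck in KO cord at day 1 (adjusted p = 0.0577), while Pcna passed between genotypes at day 1 (-0.35, adjusted p = 0.0425) and in the change from day 1 to day 3 (0.58, adjusted p = 0.0165). Over all genes, the count in KO against WT at day 1, 103 in the main setting, became 166 with the block and ran from 65 to 310 over all these settings and from 49 to 208 with 1 array left out. The count for the change from day 1 to day 3, also 103, became 342 with the block and ran from 25 to 342 and from 45 to 224. Low signal limits Tk1, Tyms and the sham level of Top2a, whose true folds may be larger than given.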

Other observations

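Upp1, a uridine phosphorylase of pyrimidine salvage, rose by 2.56 ± 0.31 in KO cord at day 1 (adjusted p = 1.23e-07 in limma), and Uck2, a uridine-cytidine kinase, by 1.48 ± 0.15 in WT cord at day 1 (adjusted p = 2.67e-09). Neither gene passed between KO and WT cord or in the genotype difference in response at day 1. These tests thus do not tie either rise to a genotype, nor do they show it to be alike in both. Dera, which breaks down deoxyribose phosphate, rose by 1.91 ± 0.16 in WT and by 1.94 ± 0.15 in KO cord at day 3 (adjusted p = 5.95e-11 and 9.79e-12). The mitochondrial enzyme Dhodh of pyrimidine synthesis fell by 0.59 ± 0.14 in WT and by 0.45 ± 0.14 in KO cord at day 3 (adjusted p = 0.000703 and 0.00452). Dguok, the mitochondrial deoxyguanosine kinase, fell by 0.58 ± 0.10 in WT and by 0.29 ± 0.11 in KO cord at day 1 (adjusted p = 3.41e-05 and 0.0286). The adenylosuccinate enzymes Adss and Adsl both fell in WT cord at day 7, by 0.30 ± 0.06 and 0.42 ± 0.12 (adjusted p = 0.000143 and 0.00471).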
